A study of Mus musculus with 35 samples.

Results

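The choroid plexus genes described here were 7 genes that the epithelium of the choroid plexus is known to express, namely *Ttr*, *Kl*, *Folr1*, *Aqp1*, *Clic6*, *Otx2* and *Enpp2*. They were chosen by symbol from 55356 counted genes and found through the deposited map of ENSEMBL genes to Iso-seq loci. Each symbol led to 1 counted gene, and none of the 7 was counted together with another gene. The libraries were made from total RNA of adult C57BL/6J mice, without any treatment named in the labels. The 10 groups were brain, cerebellum, heart and colon of females and of males, female gonad (ovary) and male gonad (testis). Each group had 3 RNA-seq libraries except male heart, which had 2, so that 6 brain and 6 cerebellum libraries stood beside 17 libraries of other tissues. Neither the labels nor the Methods say whether the choroid plexus was kept or removed at dissection, or whether libraries came from separate animals, so P-values measure only the spread between these libraries.

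The choroid plexus is a folded sheet of secretory epithelium over a core of vessels, which hangs into the ventricles of the brain. One plexus lies beside the cerebellum, in the fourth ventricle, and the others lie in the ventricles of the forebrain and diencephalon. Its epithelium secretes cerebrospinal fluid and forms a barrier between blood and fluid. *Ttr* encodes transthyretin, the carrier of thyroid hormone and of retinol with its binding protein. *Kl* encodes Klotho, a membrane protein that can be shed and acts as a co-receptor for FGF23. *Folr1* encodes a folate receptor through which folate is carried into the fluid, *Aqp1* a water channel of the apical membrane, and *Clic6* a protein of the chloride intracellular channel family. *Otx2* encodes a homeodomain transcription factor that is needed for the plexus to form and persists in it, and *Enpp2* encodes autotaxin, the secreted enzyme that makes lysophosphatidic acid.

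In the deposited annotation on GRCm38.p6, the 7 genes lay on 7 different chromosomes. *Ttr* lay on chromosome 18 (20665413 to 20674323, plus strand), *Kl* on chromosome 5 (150952705 to 150993811, plus strand) and *Folr1* on chromosome 7 (101858350 to 101867324, minus strand). *Aqp1* lay on chromosome 6 (55336305 to 55348556, plus strand) and *Clic6* on chromosome 16 (92498138 to 92541241, plus strand). *Otx2* lay on chromosome 14 (48657677 to 48673819, minus strand) and *Enpp2* on chromosome 15 (54838901 to 54952887, minus strand). Iso-seq, which reads cDNA molecules from end to end, gave 27 transcript models at *Enpp2*, 3 at *Aqp1*, 2 each at *Ttr* and *Kl*, 1 each at *Folr1* and *Clic6*, and 0 at *Otx2*, which was counted on its ENSEMBL model. *Otx2* shared 154 exon bases with *Otx2os1* on the opposite strand and 168 with *Gm49154* on the same strand, and *Enpp2* shared 340 with *Gm26684* on the opposite strand. These neighbours had few counts in the 12 brain and cerebellum libraries, at 0 to 60, 0 to 17 and 27 to 108. Whether the counting used the strand is not given in the sources used here, so the *Otx2* and *Enpp2* counts may hold some reads of these neighbours.

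Promoter sequences are shown for the members that a RefSeq promoter table on GRCm38.p6 held, which were *Kl*, *Aqp1* and *Otx2*. The window was the 250 bases before a transcription start, searched on both strands for GGGCGG, the GC box, and for TAATCC, a core that OTX-type homeodomains are known to bind. Capitals mark the matches on either strand, and *Otx2* is shown at that one of its 4 starts whose window held a match.

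*Kl*, chr5:150952357-150952606, plus strand: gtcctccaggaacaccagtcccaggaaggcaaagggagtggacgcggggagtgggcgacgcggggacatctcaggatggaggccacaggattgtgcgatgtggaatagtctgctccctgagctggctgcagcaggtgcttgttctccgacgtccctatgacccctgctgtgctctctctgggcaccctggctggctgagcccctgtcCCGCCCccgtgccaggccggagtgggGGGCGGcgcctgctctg
*Aqp1*, chr6:55336049-55336298, plus strand: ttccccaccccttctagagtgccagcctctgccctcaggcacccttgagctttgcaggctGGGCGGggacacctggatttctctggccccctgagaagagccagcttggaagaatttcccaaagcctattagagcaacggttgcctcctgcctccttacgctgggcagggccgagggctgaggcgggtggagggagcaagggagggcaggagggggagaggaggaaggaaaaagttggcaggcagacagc
*Otx2*, chr14:48665110-48665359, minus strand: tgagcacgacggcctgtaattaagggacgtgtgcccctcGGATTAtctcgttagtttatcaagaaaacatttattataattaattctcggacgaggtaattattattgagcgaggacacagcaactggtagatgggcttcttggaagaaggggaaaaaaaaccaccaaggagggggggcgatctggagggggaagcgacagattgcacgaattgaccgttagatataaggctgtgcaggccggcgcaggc

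The *Kl* window held 2 GC boxes and the *Aqp1* window 1, and GGGCGG was found in 32.7% of the 32851 promoter windows of the table. TAATCC was found once, at the *Otx2* start shown, and in 6.25% of all windows. The shown windows differed in base composition, with a GC content of 66.8% for *Kl*, 62.0% for *Aqp1* and 48.4% for *Otx2*, against a median of 52.4% over all windows. A match is only a run of letters, and no measurement of binding was used.

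Libraries held between 11742417 and 36194255 counts (median 24403774), and the number was at least 19075669 in the brain and cerebellum libraries. The brain and cerebellum labels were checked with marker genes. The summed level of 8 markers of cerebellar granule cells was 122 to 193 CPM (counts scaled to a common library size with TMM factors) in brain and 860 to 1599 CPM in cerebellum. All 34 genes of a wider list of the choroid plexus epithelium passed the filter on low counts, and they are described after the 7 genes themselves.

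The level of *Ttr* differed widely among the brain libraries. In female brain it was 973, 16.5 and 1607 CPM in replicates 1, 2 and 3, and in male brain it was 444, 43.9 and 42.3 CPM. In female cerebellum it was 2953, 3698 and 2956 CPM, and in male cerebellum 981, 3642 and 2488 CPM. Female brain replicate 2 and male brain replicates 2 and 3 were low, and the highest brain library was above the lowest cerebellum library, so that the regions overlapped. The highest brain library was at 97.4 times the lowest, against 3.77 times in cerebellum. Per length of exon, *Ttr* stood at 494 ± 615 FPKM in brain and 2641 ± 945 FPKM in cerebellum (mean ± SD, n = 6 each).

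*Enpp2*, the other abundant gene of the group, was at 891, 286 and 875 CPM in female brain and at 526, 328 and 281 CPM in male brain. It was at 1433, 3014 and 2345 CPM in female cerebellum and at 545, 2152 and 1502 CPM in male cerebellum. The same 3 brain libraries were lowest as for *Ttr*, but the span in brain was only 3.18-fold. In cerebellum it was 5.53-fold, with male cerebellum replicate 1 well below the others. On the FPKM scale, *Enpp2* stood at 141 ± 76.2 in brain and 486 ± 228 in cerebellum (mean ± SD, n = 6 each).

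*Kl* was at 71.7, 14.1 and 66.3 CPM in female brain and at 37.0, 8.48 and 13.9 CPM in male brain. It was at 94.7, 175 and 133 CPM in female cerebellum and at 35.3, 151 and 91.6 CPM in male cerebellum. The highest brain library was again at a multiple of the lowest, 8.45-fold, and 3 brain libraries reached at least the level of the lowest cerebellum library.

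*Clic6* was at 44.4, 16.5 and 55.7 CPM in female brain and at 34.5, 15.3 and 17.999 CPM in male brain. It was at 84.6, 114 and 78.9 CPM in female cerebellum and at 38.1, 98.5 and 66.6 CPM in male cerebellum. Its span in brain was 3.65-fold, the narrowest after that of *Enpp2* among the 7 genes, and the regions overlapped only at the level of male cerebellum replicate 1.

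*Folr1* was at 8.86, 1.23 and 12.3 CPM in female brain and at 3.79, 0.595 and 1.50 CPM in male brain. It was at 21.2, 27.4 and 18.7 CPM in female cerebellum and at 8.52, 28.2 and 16.9 CPM in male cerebellum. The span in brain was 20.6-fold, and the lowest brain library rested on 20 reads.

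*Aqp1* was at 9.52, 0.911 and 8.23 CPM in female brain and at 3.45, 0.685 and 0.687 CPM in male brain. It was at 15.2, 20.5 and 10.6 CPM in female cerebellum and at 9.15, 18.04 and 13.9 CPM in male cerebellum. This was the narrowest span of the 7 genes in cerebellum, 2.24-fold, against 13.9-fold in brain, where the 3 low libraries rested on 16 to 26 reads.

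*Otx2* was at 18.3, 3.22 and 13.2 CPM in female brain and at 9.18, 2.38 and 2.32 CPM in male brain. It was at 16.3, 25.8 and 21.4 CPM in female cerebellum and at 10.1, 19.3 and 13.7 CPM in male cerebellum. The regions overlapped widely, since female brain replicate 1 was above 3 of the 6 cerebellum libraries.

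**Figure D1:**
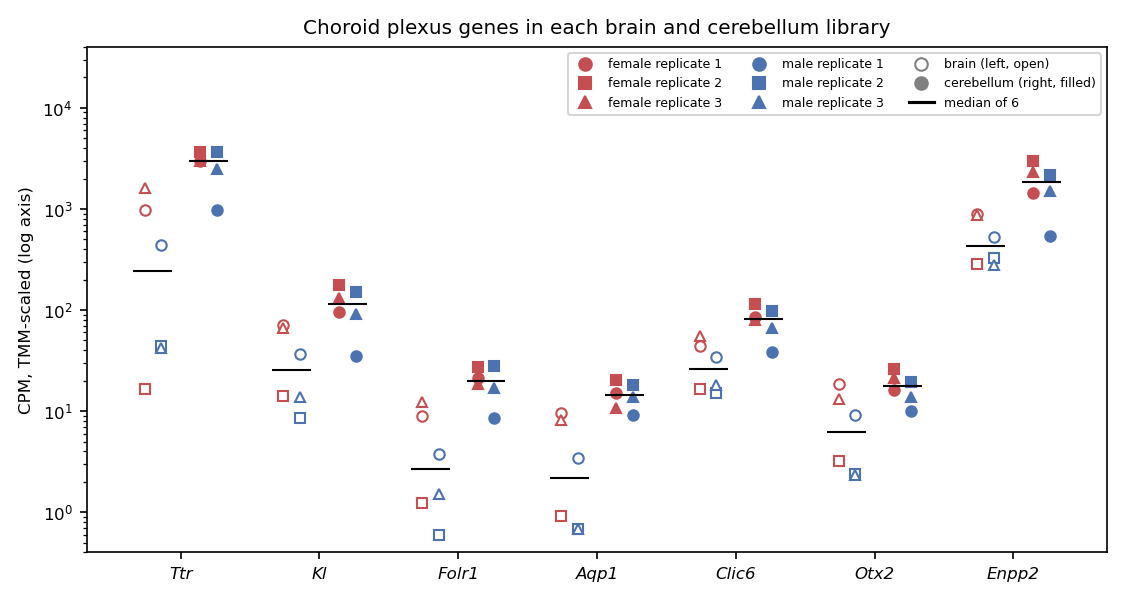
Level of each of the 7 genes (CPM scaled by TMM, log axis) in the 6 brain libraries (open symbols, left) and the 6 cerebellum libraries (filled symbols, right), with red for female, blue for male and the symbol for the replicate number, and a line at the median of 6. Female brain replicate 2 and male brain replicates 2 and 3 are the lowest brain libraries for every gene, and male cerebellum replicate 1 is the lowest cerebellum library for every gene.

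The order of the libraries was shared by the genes. In brain, female brain replicate 2 and male brain replicates 2 and 3 were the lowest 3 libraries for 7 of 7 genes, in varying order among themselves. For 6 of the 7 genes, all but *Enpp2*, the widest gap on the log2 scale lay between these 3 libraries and the other 3. In cerebellum, male cerebellum replicate 1 was lowest for 7 of 7 genes and female cerebellum replicate 2 was highest for 6 of 7, all but *Folr1*. In these bulk samples, fewer cells of the epithelium and less RNA of these genes per cell cannot be told apart, and neither can a smaller piece of plexus in the dissected tissue.

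The spread between libraries was large next to that of other genes in brain. The SD of log2 CPM over the 6 brain libraries was 2.75 for *Ttr*, 1.70 for *Aqp1*, 1.65 for *Folr1*, 1.30 for *Otx2*, 1.29 for *Kl*, 0.80 for *Clic6* and 0.78 for *Enpp2*, against a median of 0.31 over the 27738 tested genes with a count in brain. A share of 0.0324% of these genes had a larger SD in brain than *Ttr*. In cerebellum the SD was 0.44 to 0.87 for the 7 genes, against a median of 0.34 over 27559 genes.

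Other cell types moved in part with the 3 low brain libraries. In these 3 and in the other 3 brain libraries, the summed level of 10 oligodendrocyte markers was 4623 to 5384 against 5703 to 8903 CPM, and none of these markers was at 0. For 10 ependymal markers it was 40.3 to 65.7 against 82.7 to 109 CPM, and for 6 red cell markers 255 to 457 against 470 to 1122 CPM. The sum of 7 pineal and midbrain dopamine genes also separated the low 3 from the other 3, at 10.1 to 13.7 against 19.0 to 36.1 CPM. For 10 endothelial markers the 2 sets of libraries overlapped, at 92.6 to 167 and 114 to 138 CPM, as they did for 10 markers of meningeal and perivascular fibroblasts, at 297 to 800.0 and 427 to 550 CPM. The part of tissue composition in the levels of the 7 genes was not tested.

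The study compared tissues and sexes, and the first comparison asks whether these genes differ between brain and cerebellum. All 7 genes were lower in brain in edgeR's quasi-likelihood test over 29911 genes at an adjusted P under 0.05, a call that 10.8% of all genes received. The difference of brain minus cerebellum on the log2 scale was -2.82 ± 0.66 for *Ttr* (SE, adjusted P = 0.0018), -2.40 ± 0.40 for *Folr1* (adjusted P = 4.04e-05) and -2.21 ± 0.38 for *Aqp1* (adjusted P = 6.02e-05). It was -1.82 ± 0.40 for *Kl* (adjusted P = 0.0012), -1.81 ± 0.44 for *Enpp2* (adjusted P = 0.0030), -1.42 ± 0.29 for *Clic6* (adjusted P = 0.00048) and -1.25 ± 0.38 for *Otx2* (adjusted P = 0.019). The median over the 7 genes was -1.82, beside a median of 0.03 over the 28288 tested genes with a count in these libraries. The other 1623 tested genes had counts only in other tissues.

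The call for *Otx2* rested on single libraries. It was lost without male brain replicate 2 (-1.09, adjusted P = 0.057), without male brain replicate 3 (-1.10, adjusted P = 0.055) and without male cerebellum replicate 2 (-1.12, adjusted P = 0.055), and it was kept without any other single library. The other 6 genes kept their call whichever library was left out. No gene of the 7 separated the regions completely, whereas the libraries of 18.2% of all genes tested did not overlap.

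The 3 low brain libraries carried much of the difference. The other 3 brain libraries had means of 1008 CPM for *Ttr*, 764 CPM for *Enpp2* and 13.6 CPM for *Otx2*, and the cerebellum mean stood at 2.76, 2.40 and 1.31 times these values. For *Folr1*, *Aqp1*, *Kl* and *Clic6* it stood at 2.43, 2.06, 1.95 and 1.79 times. All 7 genes thus remained lower in the mean of the other 3 brain libraries, and their ranges overlapped those of cerebellum for all 7. These libraries were set apart by their levels of *Ttr*, so no test was run on them. In all, 5 pairs of a brain and a cerebellum library have library codes of 2 digits that share the first, and what the digit stands for is not stated. Female brain replicate 2, whose code is the single digit 1, was not paired. Within these 5 pairs, 7, 7, 6, 7 and 7 of the 7 genes were lower in brain, the exception being *Kl* in male replicate 1 at 37.0 against 35.3 CPM.

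The second comparison is between the sexes. In brain, 0 of the 7 genes passed the adjusted threshold, beside 0.0368% of all genes, and DESeq2 also called 0 of the 7. All 7 were lower on average in male than in female brain, and 5 of the 7 had an unadjusted P under 0.05, against 4.83% of all genes. Female brain replicate 2 and male brain replicates 2 and 3 were lowest for all 7, so these P-values are not independent of each other. The log2 difference of male minus female was -2.29 ± 0.91 for *Ttr*, -1.96 ± 0.56 for *Aqp1*, -1.94 ± 0.57 for *Folr1*, -1.36 ± 0.57 for *Kl* and -1.32 ± 0.54 for *Otx2*, with adjusted P of 0.98, 0.73, 0.79, 0.99 and 0.99. It was -0.86 ± 0.61 for *Enpp2* and -0.78 ± 0.40 for *Clic6*. The male and female libraries overlapped for all 7 genes, while those of 13.6% of all genes did not, since female brain replicate 2 was among the low ones. Without that library *Aqp1* alone passed (-2.47, adjusted P = 0.026).

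Several lists of other genes also had negative medians in male against female brain. The median log2 difference was -1.01 for the wider choroid plexus list (17 of 34 genes with an unadjusted P under 0.05), -1.02 for red cell markers (2 of 6) and -0.88 for pineal and dopamine genes (3 of 7), with 0 genes called in edgeR in each. It was -0.39 for ependymal, -0.36 for oligodendrocyte and -0.39 for endothelial markers, and 0.58 for adipocyte genes, which were under 1 CPM in sum. Of 10 fibroblast markers, 7 had an unadjusted P under 0.05 and 0 were called in edgeR, with a median log2 difference of -0.82 and a summed level of 297 to 468 CPM in male and 427 to 800.0 CPM in female brain. Of 8 granule cell markers, 5 had an unadjusted P under 0.05 and *Fat2* was called lower (-1.57 ± 0.29, adjusted P = 0.043), with a median of -1.03 and a summed level of 122 to 167 CPM in male and 172 to 193 CPM in female brain. None of the fibroblast or granule cell markers was at 0 in all libraries of a sex, and the part of other cells in the sex differences of the 7 genes was not tested.

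In cerebellum, 0 of the 7 genes passed in edgeR and 0 in DESeq2, and 0 had an unadjusted P under 0.05, beside 0.0301% and 3.06% of all genes. The differences of male minus female were between -0.69 for *Enpp2* and -0.17 for *Aqp1* on the log2 scale, with SEs of 0.61 and 0.49. The interaction of sex with region, which asks whether the sex difference itself differs between brain and cerebellum, gave 0 calls among the 7 genes in edgeR, beside 0.00% of all genes, and 0 in DESeq2. Its unadjusted P was under 0.05 for *Aqp1* (-1.79 ± 0.74, adjusted P = 1.00) and *Folr1* (-1.61 ± 0.77, adjusted P = 1.00), beside 3.98% of all genes.

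Co-variation was measured on log2 CPM over the 12 libraries, after the mean of each region was subtracted, so that the difference between regions did not enter. Pearson's r was positive for all 21 pairs of the 7 genes, from 0.77 for *Aqp1* with *Enpp2* to 0.97 for *Kl* with *Clic6*, with a median of 0.93. Spearman's rho ran from 0.82 to 0.97. When the 2 libraries farthest from the median of the first gene were left out, r ran from 0.66 to 0.98 with a median of 0.94. All genes of a library share its RNA and its depth, in these values and in those within a region. No P is given over the 12 libraries, because they fell into low and high sets in brain.

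Within brain alone r was 0.93 to 0.99 (median 0.97, n = 6 libraries), which is a description of the gap between the 3 low libraries and the other 3. Within cerebellum alone r was 0.67 to 0.99 (median 0.94, n = 6 libraries), and 18 of the 21 pairs passed after adjustment over the 21 pairs of the exact two-sided permutation test over all 720 orders, whose smallest P is 0.00139. By Spearman's rho, 8 of the 21 passed the exact permutation test. The 21 pairs share the same 6 libraries and are not independent of each other. How many pairs of other genes would pass in these 6 libraries was not tested. The counts of passing pairs therefore do not show whether passing is particular to these genes. *Clic6* and *Folr1* were among the tightest pairs, with r = 0.99 and rho = 0.94 (exact permutation P = 0.0028, adjusted P = 0.015).

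The 3 cerebellum pairs that did not pass all held *Aqp1*. They were *Aqp1* with *Kl* (r = 0.77, exact permutation P = 0.058, adjusted P = 0.064), with *Enpp2* (r = 0.71, exact permutation P = 0.10, adjusted P = 0.11) and with *Otx2* (r = 0.67, exact permutation P = 0.14, adjusted P = 0.14). In brain the same pairs had r of 0.98, 0.99 and 0.99. Male cerebellum replicate 1 weighed on the cerebellum values, and without it the median r was 0.80. When the 2 cerebellum libraries farthest from the median of the first gene were left out, the median over the 21 pairs was 0.68 and 19 pairs remained positive, so that much of the cerebellum relation rests on those libraries.

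The levels relative to *Ttr* spanned a wider range in brain than in cerebellum. In cerebellum the CPM of *Kl* was 3.21% to 4.73% of that of *Ttr*, *Folr1* 0.631% to 0.869%, *Aqp1* 0.360% to 0.933%, *Clic6* 2.67% to 3.88%, *Otx2* 0.529% to 1.03% and *Enpp2* 48.5% to 81.5%. In brain the same shares ran from 4.12% to 85.1% for *Kl*, from 0.763% to 7.43% for *Folr1*, from 0.512% to 5.52% for *Aqp1*, from 3.47% to 100.2% for *Clic6*, from 0.820% to 19.5% for *Otx2* and from 54.4% to 1735% for *Enpp2*. *Ttr* is the denominator of all these shares, and its own span in brain enters each of them.

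A straight line of each gene on *Ttr* over the 6 brain libraries was read at a *Ttr* level of 0. It gave 314 CPM for *Enpp2*, which was 59.0% of its brain mean, and 17.4 CPM for *Clic6* (56.7%), 14.5 CPM for *Kl* (41.1%) and 3.64 CPM for *Otx2* (44.9%). For *Folr1* and *Aqp1* the line began at 0.886 CPM (18.8%) and 0.974 CPM (24.9%). Without female brain replicate 3 the line began at 0.289 CPM for *Aqp1* and at 2.04 CPM for *Otx2*. Over the 6 cerebellum libraries, none of which was near a *Ttr* level of 0, the lines gave other values, at -296 CPM for *Enpp2*, -19.0 CPM for *Kl*, 0.304 CPM for *Folr1*, 4.24 CPM for *Otx2*, 4.603 CPM for *Aqp1* and 8.84 CPM for *Clic6*. These rested on male cerebellum replicate 1, without which all 6 were below 0, at -906, -69.9, -7.91, -2.86, -2.32 and -18.6 CPM in the same order. Per 1000 CPM of *Ttr*, *Folr1* gained 7.33 CPM over the brain libraries and 7.12 CPM over the cerebellum libraries, and *Clic6* gained 25.5 and 25.6 CPM. *Enpp2* gained 417 CPM in brain and 764 CPM in cerebellum. These lines were chosen after the values were seen and are given as descriptions.

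**Figure D2:**
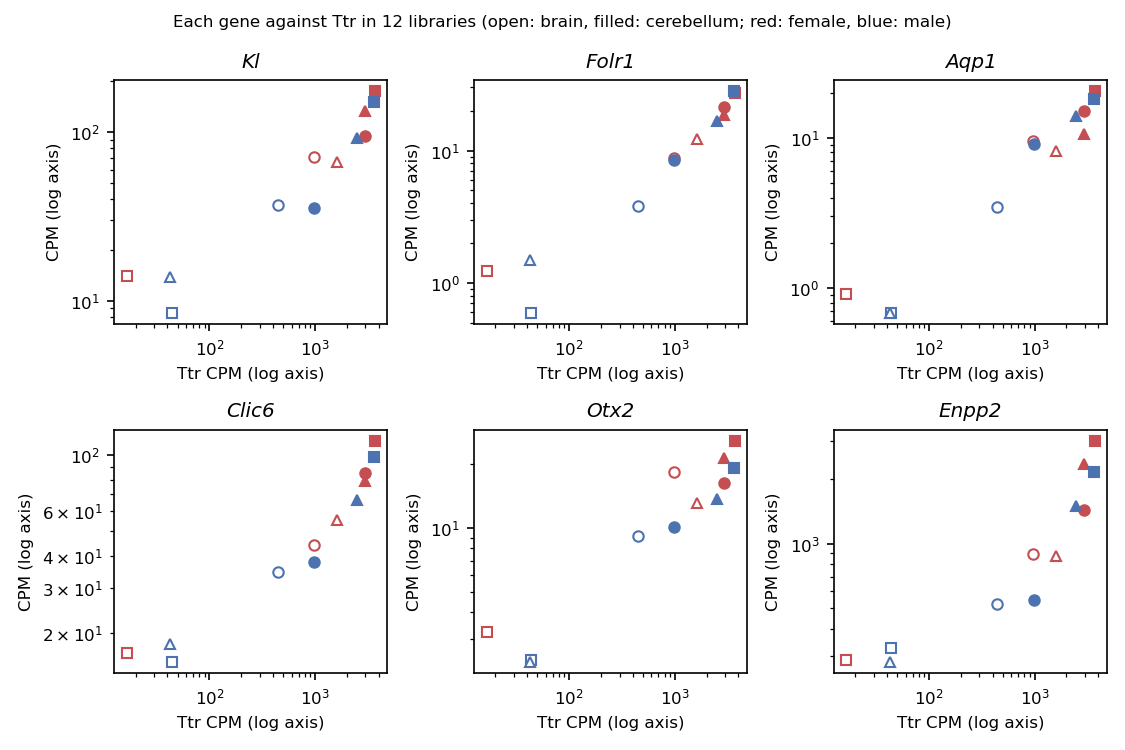
CPM of *Kl*, *Folr1*, *Aqp1*, *Clic6*, *Otx2* and *Enpp2* against that of *Ttr* in the 12 libraries, both on log axes, with open symbols for brain, filled symbols for cerebellum, red for female and blue for male. The 3 brain libraries with the least *Ttr*, at 16.5 to 43.9 CPM, are the lowest brain libraries for every gene, and among these 3 the other genes do not follow the order of *Ttr*.

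Among 28288 genes that passed the filter on low counts and varied in the 12 libraries, 57 (0.201%), the 7 genes included, had r of at least 0.9 with the mean standardized profile of the 7. The 10 other genes most like this profile were *Tmem72* (r = 0.99), *Slc4a5* (0.99), *Krt8* (0.98), *Krt18* (0.98), *Cldn2* (0.98), *Prlr* (0.98), *F5* (0.97), *Tmem184a* (0.97), *Calml4* (0.97) and *Prr32* (0.96). *Slc4a5* encodes a sodium bicarbonate cotransporter, *Krt8* and *Krt18* the keratin pair of simple epithelia, *Cldn2* a claudin of leaky tight junctions, *Prlr* the prolactin receptor and *F5* coagulation factor V. Of these 10 genes, 6 stood in the wider list of the choroid plexus epithelium, and *Krt8*, *Krt18*, *Tmem184a* and *Prr32* did not. *Prlr* and *Tmem184a* were counted at Iso-seq loci that also carry *Gm21973* and *Gm26938*. All 10 were low in counts, with brain means of 0.295 to 7.12 CPM and cerebellum means of 0.810 to 24.7 CPM.

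In the wider list, 15 of 34 genes had r of at least 0.9 with the profile of the 7, and the median was 0.86. Against cerebellum, 28 of the 34 were lower in brain and 0 were higher, beside 10.8% and 15.3% of all genes, with a median log2 difference of -1.18. The differences were largest for *Kcne2*, a potassium channel subunit (-2.99 ± 0.62, adjusted P = 0.00062), *Slc4a5* (-2.56 ± 0.60, adjusted P = 0.0019), *Steap1*, a metalloreductase (-2.50 ± 0.54, adjusted P = 0.00084), and *Cldn2* (-2.25 ± 0.47, adjusted P = 0.00058). *Kcne2* was at 0.0859 to 6.41 CPM in brain and at 5.47 to 30.3 CPM in cerebellum, with an overlap between the regions.

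The 4 most abundant genes of the wider list followed the 7 to differing degrees. *Ace*, the angiotensin-converting enzyme, had r = 0.895 and a log2 difference of -1.03 ± 0.20 (adjusted P = 0.00039). *Slc12a2*, a sodium, potassium and chloride cotransporter, had r = 0.68 and a difference of -0.82 ± 0.17 (adjusted P = 0.00047). *Igf2*, a growth factor that meninges and vessels also express, had r = 0.43 and a difference of -0.82 ± 0.15 (adjusted P = 0.00021). *Slc4a10*, a bicarbonate transporter that neurons also express, had r = -0.07 and did not pass, at 285 CPM in brain and 243 CPM in cerebellum (0.23 ± 0.20, adjusted P = 0.46).

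The markers of other cell types had lower values of r than the wider list. The median r was 0.59 for ependymal, 0.55 for oligodendrocyte and 0.60 for red cell markers. It was 0.38 for granule cell, 0.17 for endothelial and 0.17 for fibroblast markers, beside -0.02 over all genes. In these lists 0 genes had r of at least 0.9, which only 0.201% of all genes reached. In a list of 8 pineal and midbrain dopamine genes, of which 7 were tested, the median was 0.70, and *Slc6a3*, the dopamine transporter, had r = 0.92 at 0.245 to 5.85 CPM in brain and 0.0484 to 0.694 CPM in cerebellum. In brain against cerebellum, 10.8% of all genes were called lower and 15.3% higher. All 6 red cell and all 8 granule cell markers were lower, as were 5 of 10 fibroblast markers and 1 of 10 oligodendrocyte markers (*Cnp*). In edgeR 0 of 10 ependymal markers passed, with a median log2 difference of -0.38. Of 10 endothelial markers 1 was higher (*Egfl7*), and of the 7 pineal and dopamine genes 1 was higher (*Slc6a3*) and 2 were lower. A call of 1 gene in such a list is near the shares over all genes.

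**Figure D3:**
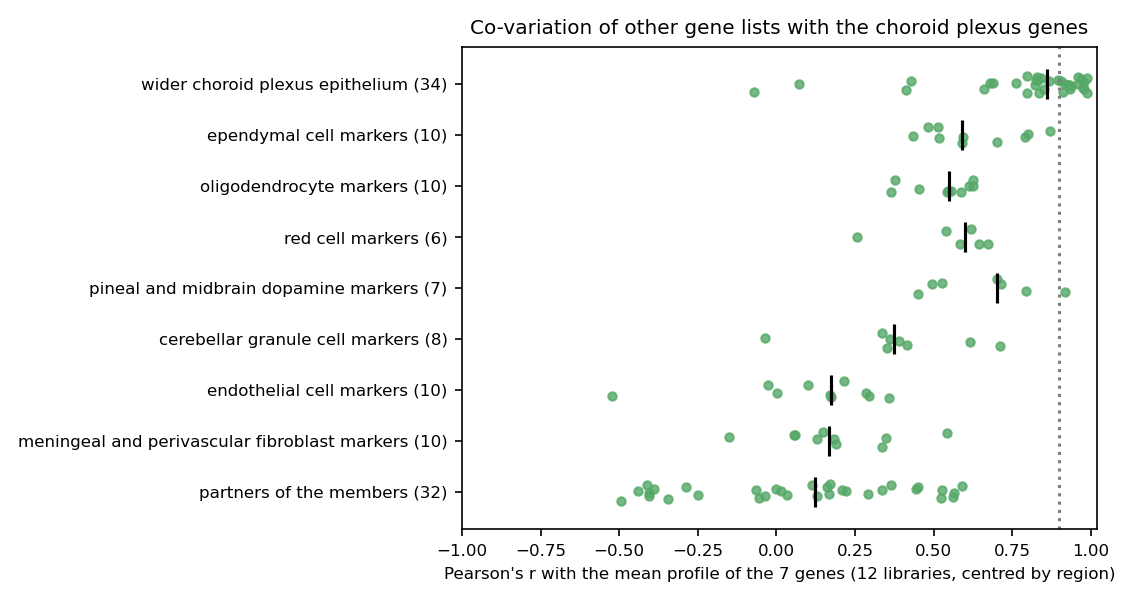
Pearson's r of each gene of 9 lists with the mean standardized profile of the 7 genes, over 12 libraries and after centring by region, with the number of tested genes in parentheses, a line at the median of each list and a dotted line at 0.9. The median is 0.86 for the wider list of the choroid plexus epithelium and 0.12 for the partners of the 7 genes.

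The partners of the 7 genes, meaning their paralogs, ligands, co-receptors and receptors, did not share their profile. Of 33 such genes 32 were tested, and the median r was 0.12, beside -0.02 over all genes. Of these 32, 0 had r of at least 0.9, which only 0.201% of all genes reached. Against cerebellum, 6 of the 32 were higher and 10 lower in brain, beside 15.3% and 10.8% of all genes, with a median log2 difference of -0.46. Among the partners of transthyretin, *Crym*, which binds thyroid hormone inside cells, was higher in brain (6.88 ± 0.35, adjusted P = 1.61e-13), and *Dio2*, the deiodinase that activates the hormone, was higher as well (1.41 ± 0.29, adjusted P = 0.00062). *Otx1*, the paralog of *Otx2*, went the other way from it, with 6.04 to 9.29 CPM in brain and 0 to 0.682 CPM in cerebellum (4.19 ± 0.55, adjusted P = 4.85e-06).

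Several paralogs of the channels were lower in brain. *Aqp4*, the water channel of astrocytes, was at 199 to 288 CPM in brain and 339 to 518 CPM in cerebellum (-0.80 ± 0.26, adjusted P = 0.021). *Aqp5* was under 2 CPM in all 12 libraries (-2.23 ± 0.69, adjusted P = 0.018). *Clic4* was at 154 to 256 CPM in brain and 312 to 421 CPM in cerebellum (-0.99 ± 0.13, adjusted P = 2.14e-06). Of the paralogs of *Enpp2*, *Enpp5* was higher in brain (0.39 ± 0.12, adjusted P = 0.014), whereas *Enpp1* (-0.72 ± 0.17, adjusted P = 0.0023), *Enpp3* (-0.81 ± 0.29, adjusted P = 0.040) and *Enpp6* (-0.64 ± 0.21, adjusted P = 0.027) were lower. The libraries of the regions did not overlap for 10 of the 32 partners tested, among them *Aqp4*, *Aqp5*, *Clic4* and *Enpp5*. The same held for 18.2% of all genes and for 0 of the 7 choroid plexus genes.

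Outside the nervous system the 7 genes parted ways. For *Ttr*, *Kl*, *Clic6*, *Otx2* and *Enpp2*, the mean of brain and cerebellum was higher than heart, colon, ovary and testis in all 4 tests, and the libraries did not overlap in any of the 4. The tests called 35.2%, 39.0%, 30.9% and 31.5% of all genes higher and 24.9%, 31.2%, 27.0% and 41.4% lower, and the libraries of 34.6%, 41.4%, 40.8% and 61.5% did not overlap, so a call by itself says little about these genes. *Ttr* followed the order cerebellum, brain, colon and then heart, testis and ovary. It was at 3.34 to 14.6 CPM in colon, 0.219 to 1.08 CPM in heart, 0.0804 to 0.722 CPM in testis and 0.0383 to 0.527 CPM in ovary, and the last 3 tissues overlapped. The log2 difference from brain and cerebellum was 6.66 ± 0.77 for colon and 10.9 ± 1.2 for heart.

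*Kl* was next highest in testis, at 2.78 to 3.70 CPM, and in ovary, at 1.26 to 4.64 CPM, which overlapped. Heart, at 0.0681 to 0.617 CPM, and colon, at 0.0661 to 1.16 CPM, rested on 1 to 15 reads per library. *Clic6* was at 4.34 to 5.75 CPM in testis, 1.00 to 3.90 CPM in colon, 0.0711 to 0.933 CPM in heart, and it had 0 to 4 counts per library in ovary. Testis was above colon in every library, and so was colon above heart and brain above testis.

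*Otx2* had no count in any heart or ovary library. With 3 counts per library as the floor, the lowest brain library was at least 10.6-fold higher than heart and at least 20.2-fold higher than ovary. It had 1 count in each of 2 colon and 2 testis libraries and 0 in the rest. *Enpp2* was expressed in every tissue, at 45.9 to 112 CPM in colon, 24.99 to 37.0 CPM in ovary, 32.8 to 34.0 CPM in testis and 22.0 to 40.3 CPM in 4 heart libraries. The remaining heart library, female heart replicate 3, was at 238 CPM. It also held 3195 CPM of 5 adipocyte genes, against 0.885 to 13.1 CPM in the other 4, and 4539 CPM of 4 genes of atrial muscle, against 57.9 to 260 CPM. Its sum was also higher for fibroblast markers (4014 against 2237 to 2933 CPM). It was lower for red cell markers (4196 against 8745 to 26653 CPM) and endothelial markers (462 against 560 to 889 CPM). The part of these cell types in its *Enpp2* level was not tested.

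*Folr1* was higher in the gonads than in the brain and cerebellum. It was at 57.6 to 65.8 CPM in ovary and 43.2 to 71.7 CPM in testis, which overlapped, and no brain or cerebellum library exceeded 28.2 CPM. The log2 difference of brain and cerebellum was -2.84 ± 0.36 from ovary and -2.75 ± 0.36 from testis (adjusted P = 1.58e-07 and 1.69e-07). Heart, at 1.09 to 1.71 CPM, and colon, at 0.0776 to 0.724 CPM, were lower than the mean of brain and cerebellum (2.67 ± 0.46 and 4.15 ± 0.48), although some of the low brain libraries fell within their range.

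*Aqp1* had its lowest mean level in brain. Its order was heart (243 to 399 CPM), ovary (130 to 167 CPM), colon (17.0 to 35.8 CPM), cerebellum (9.15 to 20.5 CPM), testis (5.71 to 8.89 CPM) and brain (0.685 to 9.52 CPM). Colon overlapped cerebellum, and testis overlapped brain. The log2 difference of brain and cerebellum was -5.60 ± 0.31 from heart, -4.49 ± 0.33 from ovary and -2.03 ± 0.29 from colon, and it did not pass from testis (-0.13 ± 0.40, adjusted P = 0.80).

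**Figure D4:**
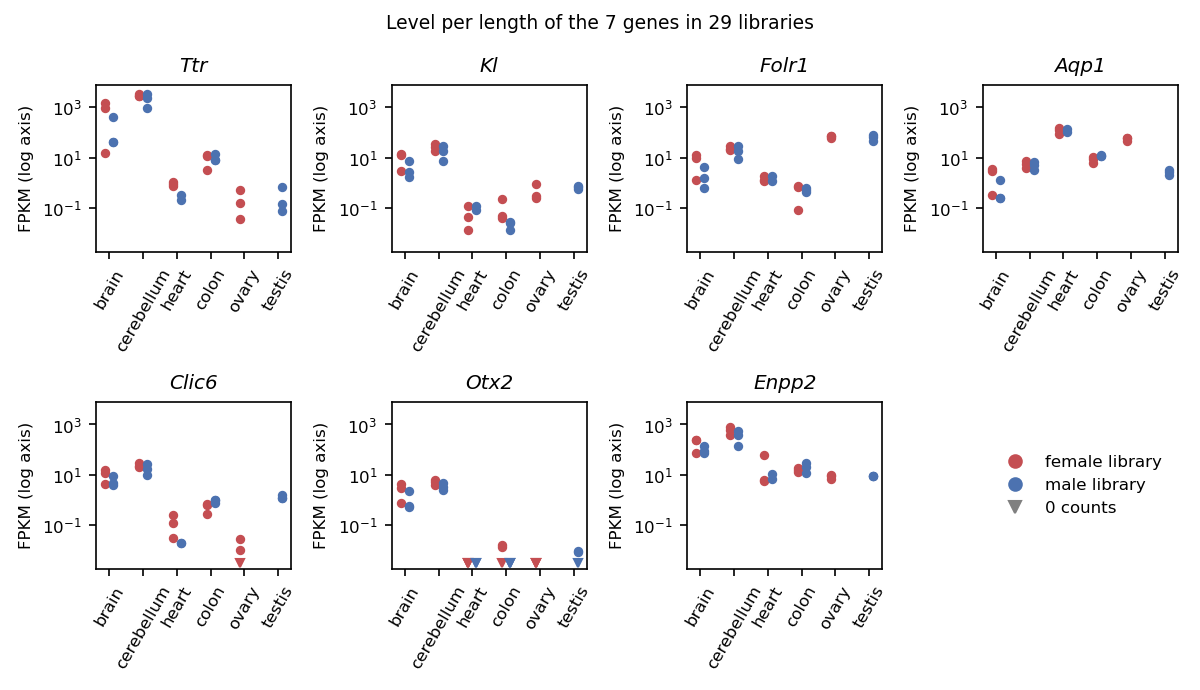
Level of the 7 genes per length of exon (FPKM, log axis) in each of the 29 libraries by tissue, with red for female and blue for male libraries and triangles at the bottom for libraries without a count. *Ttr* and *Enpp2* are highest in cerebellum, *Folr1* in ovary and testis, and *Aqp1* in heart.

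Per length, *Ttr* and *Enpp2* had the highest means in both brain and cerebellum. In cerebellum *Ttr* and *Enpp2* led, followed by *Kl* at 22.6 ± 9.98, *Folr1* at 21.5 ± 7.79 and *Clic6* at 21.3 ± 7.01 FPKM. The order of these last 3 changed from library to library. *Aqp1* at 5.29 ± 1.56 and *Otx2* at 4.21 ± 1.33 FPKM came last (mean ± SD, n = 6 each). *Aqp1* was above *Otx2* in every cerebellum library but female replicate 3. In brain *Clic6* at 8.19 ± 4.50, *Kl* at 7.02 ± 5.58 and *Folr1* at 5.02 ± 5.11 FPKM came after *Ttr* and *Enpp2*, and *Otx2* at 1.92 ± 1.58 and *Aqp1* at 1.42 ± 1.45 FPKM were last. The ranges of the first 3 of these overlapped between libraries, and so did those of the last 2. Within each brain library, however, *Clic6* and *Kl* were above *Folr1*, and *Otx2* was above *Aqp1*. In the 3 brain libraries with the least *Ttr*, *Enpp2* exceeded it on this scale, and *Ttr* exceeded *Enpp2* in the other 9 libraries.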

How the data were processed

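Total RNA was depleted of ribosomal RNA and sequenced as strand-specific libraries. The authors deposited whole-number counts of uniquely mapped reads per gene, without normalization, on Iso-seq transcript models joined with ENSEMBL genes. The submitters' processing notes name FastQC 0.11.8, MultiQC 0.9, HISAT2 2.0.5 and featureCounts 1.6.3. The 7 genes and the gene lists were chosen with earlier results of these data known.

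edgeR 4.0.16 (quasi-likelihood test, TMM, filter on low counts by group) was fitted to the deposited counts of 29 libraries with a mean for each of 10 groups, with calls at a Benjamini-Hochberg adjusted P under 0.05 among 29911 genes. It was tested on simulated data. CPM used TMM-scaled totals, FPKM was CPM per kilobase of union exon, and log2 CPM for co-variation had a prior count of 2. The planned permutation P over 12 libraries is not given, because the brain libraries fell into separate sets. Genes named beside the 7 were the 10 most like their mean profile, the most abundant and the most different of each list, and those with overlapping exons. *Slc6a3*, *Egfl7* and *Cnp* were named as single calls, and *Enpp1*, *Enpp3* and *Enpp6* as further called paralogs of *Enpp2*. The adipocyte and atrial lists, the ratios to *Ttr*, the means without 3 brain libraries and the cerebellum r without 2 libraries were added after the data were seen.

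Low levels were limited by depth, and 3 counts per library was the floor (0.0893 to 0.145 CPM in brain and cerebellum). In the 28 pairs of libraries of a group, counts differed by more than sampling noise (chi-square per gene 10.1 to 286), and 0 pairs were identical. Libraries of the same replicate number did not deviate together (r of -0.030 to 0.085), and neither did those sharing a first code digit (-0.036 to 0.041). DESeq2 1.42.0, other scalings, no filter, blocks and leaving out each library were tried as alternatives.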

Additional observations from a re-analysis of the deposited data

Results flagged for a closer look

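In 28 sets of 5 or 6 libraries of 1 gene and tissue, the highest or lowest library was compared with the rest of its set, and about 1 set in 20 is picked out by chance. For *Enpp2* in heart, female heart replicate 3 was at 237.5 CPM and stood far above the other 4 heart libraries at 22.0 to 40.3 CPM. For *Kl* in colon, female colon replicate 1 was at 1.16 CPM, which rested on 15 reads, and the other 5 colon libraries were at 0.0661 to 0.236 CPM.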

How the results depend on the processing

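Other scalings (RLE, DESeq2), no filter on low counts, a fit of the 12 brain and cerebellum libraries alone, and blocks left 7 of 7 genes lower in brain than in cerebellum, and leaving out single libraries gave 6 to 7. With the replicate block, 7338 genes were called in that comparison, and 10 and 8 between the sexes in brain and cerebellum; it changed no call of the 7 genes. Neither the replicate numbers nor the library codes marked libraries that deviated together, and a block by library code called 8883 genes. DESeq2 called more genes between the sexes, 35 in brain, 19 in cerebellum and 4 for the interaction, none of them among the 7. Leaving out 1 library gave 0 to 1 of the 7 called between the sexes in brain (1 without female brain replicate 2), and 0 to 4 genes of all for the interaction (4 without male cerebellum replicate 3). Differences that did not pass changed sign when 1 library was left out. These were *Aqp1* in male against female cerebellum (-0.42 to 0.089, above 0 without female cerebellum replicate 2 and, at 0.050, without male cerebellum replicate 1), *Folr1* there (-0.82 to 0.0065, above 0 without male cerebellum replicate 1), the interaction for *Clic6* (-0.78 to 0.038, with 0.019 without female brain replicate 3 and 0.038 without male cerebellum replicate 2) and for *Enpp2* (-0.55 to 0.29, above 0 without any of 5 libraries), and *Aqp1* against testis (-0.43 to 0.025, with 0.0036 without female brain replicate 2, 0.025 without male gonad replicate 3, 0.018 with no filter). The cause was not tested. RLE and DESeq2 moved the median log2 difference of genes with a count by -0.11 and -0.25 against heart, -0.22 and -0.31 against colon, and -0.20 and -0.20 against testis, and by under 0.05 elsewhere. The median r in cerebellum was 0.80 to 0.98 without 1 library, lowest without male cerebellum replicate 1, and 0.68 without the 2 farthest libraries. Of the 10 genes most like the 7, 5 were shared when likeness was taken from *Ttr* alone and 5 by Spearman's rho.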
